A study of Mus musculus with 12 samples.

Results

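Dorsal skin of C57BL/6J mice that had chronic restraint stress together with imiquimod (CRS+IMQ) was compared with dorsal skin of C57BL/6J mice that had chronic restraint stress alone (CRS). Libraries were taken by their treatment label and no measured value was used to choose them. Each group held 3 RNA libraries from day 29, so the comparison rests on 6 of the 12 libraries of the series. Restraint is common to both groups, and the contrast therefore asks what differs in skin that was already stressed when imiquimod is added. Of the other 6 libraries, 3 came from mice given imiquimod alone (IMQ) and 3 from mice given nothing (control), and they enter only where the imiquimod difference in stressed skin is set beside that in unstressed skin. The labels give neither age, sex and imiquimod dose nor the length of restraint. Whether different mice gave the libraries of a group is not in the labels, so the p-values cover only how far these samples scatter, and that scatter may be technical. The CRS+IMQ values lie in 1 deposited table and the CRS values in the other, and an effect of imiquimod and an effect of the table cannot be told apart in a direct comparison.

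Imiquimod is a small molecule that activates Toll-like receptor 7, an endosomal sensor of single-stranded RNA. The receptor signals through the adaptor MyD88 to NF-kB and to interferon regulatory factors. On mouse skin imiquimod produces a thickened, scaling, neutrophil-rich inflammation that is used as a model of psoriasis, in which keratinocytes answer cytokines of the IL-17 and IL-36 families with antimicrobial proteins, wound keratins and chemokines. Restraint raises circulating glucocorticoids, steroid hormones that bind a nuclear receptor and restrain many NF-kB targets. Whole dorsal skin also holds hair follicles, sebaceous glands, fat, vessels, nerves and the thin panniculus muscle, so its RNA follows the makeup of the piece taken. In such bulk samples, fewer cells of a type and less RNA per cell cannot be told apart.

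Levels are FPKM, fragments per kilobase of transcript scaled to the mapped fragments of the library. A difference is that of the group means of log2(FPKM + 1), CRS+IMQ minus CRS, which understates the change of genes with low levels. A gene was called when its Benjamini-Hochberg adjusted p from limma was under 0.05 and its difference was at least 1 in size, and "rose" and "fell" are used of called genes. Of 14021 genes tested, 2041 were called (14.6%), with 1352 higher in CRS+IMQ (9.64%) and 689 lower (4.91%). By adjusted p alone 8536 genes passed (60.9%). Quantile normalization changed that split to 1097 higher and 943 lower and moved the median difference of all genes to -0.07, against 0.06 in the values as deposited. The rises were also the larger changes. A difference of at least 5 was reached by 48 genes that rose and by 3 that fell, and a difference of at least 3 by 166 and 28.

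Replicates of the stressed groups lay close together. Over 2892 genes with at least 10 FPKM in all libraries the median coefficient of variation was 3.43% in CRS+IMQ and 4.72% in CRS, against 11.6% in IMQ and 11.8% in control. All 3 CRS+IMQ libraries lay on the same side of all 3 CRS libraries for 9505 genes (67.8%). The count of list members is therefore followed by the count from a fit in which the 3 libraries of a stressed group were averaged to 1 sample. That fit takes its spread from the IMQ and control libraries and assumes that the lone samples vary like them. The averaged fit tested 14864 genes, and the shares over all genes given above do not apply to its counts. It called 1037 genes, 877 higher and 160 lower, and 1028 of the 1035 that were also tested in the 6-library fit were called there in the same direction. Both fits share the stressed libraries and the size limit, so their agreement in direction is no separate support. A gene under 1 FPKM in all libraries of 1 group could be tested only if the other group was higher. That was the case for 631 genes low in CRS and 370 low in CRS+IMQ. The following lists are described by their counts and medians, with no test of the list as a whole.

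**Figure D1:**
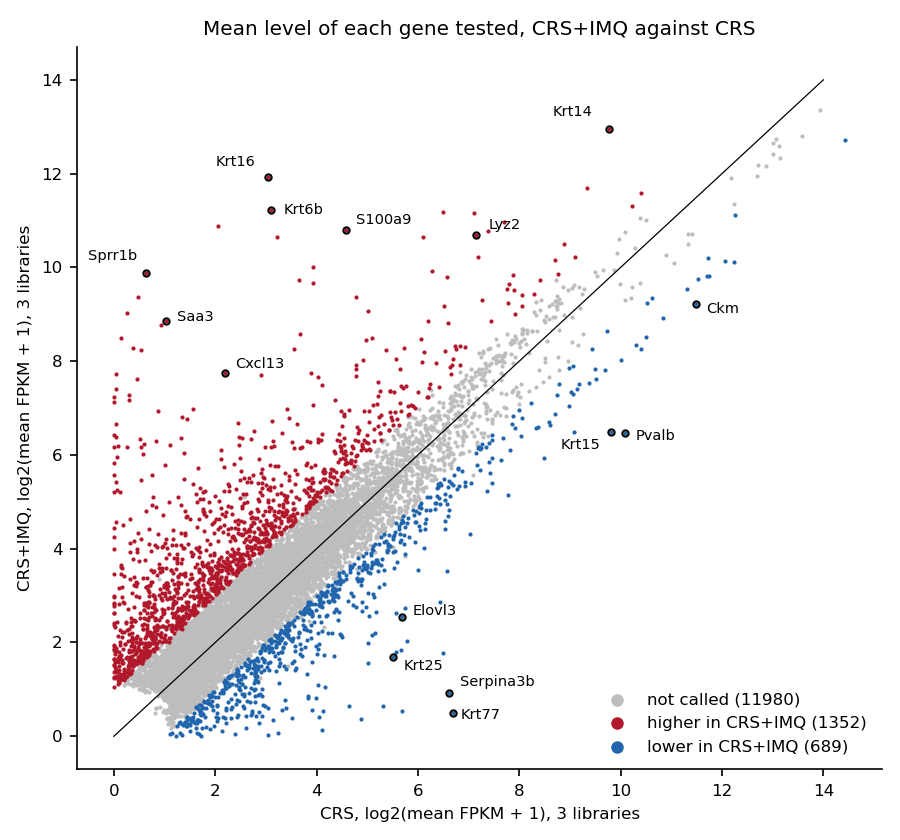
Mean level of each of the 14021 genes tested, as log2(mean FPKM + 1), in CRS+IMQ (vertical axis) against CRS (horizontal axis), 3 libraries each. Red points are the 1352 genes that rose, blue points the 689 that fell and grey points the genes not called, and the named points lie farthest from the line of equal level for Sprr1b, Krt16 and Krt77.

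Genes of keratinocyte activation were among the largest rises. Krt16, which encodes a keratin of wounded and psoriatic epidermis (chromosome 11, chr11:100246091-100248902 in mm10), had 3985, 3922 and 3857 FPKM in the CRS+IMQ libraries, against 6.47, 7.34 and 7.97 FPKM in the CRS libraries. All 3 CRS+IMQ libraries were high and the groups lay far apart, with a log2 difference of 8.90 (SE 0.07, adjusted p = 1.79e-08). Krt6b, whose product is a hyperproliferation keratin able to pair with keratin 16, had 2427, 2393 and 2379 FPKM in the CRS+IMQ libraries, against 7.34, 7.45 and 8.05 FPKM in the CRS libraries. The groups again lay apart, with a log2 difference of 8.12 (SE 0.04, adjusted p = 8.76e-09). Krt6a, its close relative at chr15:101689910-101694307, had 2316, 2286 and 2288 FPKM in the CRS+IMQ libraries, against 137, 140.1 and 136 FPKM in the CRS libraries, and its difference was 4.05. Krt6a and Krt6b have similar sequences, and how the authors' quantification divided shared fragments between them is uncertain.

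S100a9 and S100a8 encode the partners of calprotectin, an alarmin made by activated keratinocytes and by neutrophils. S100a9 had 1786, 1730.4 and 1790.2 FPKM in the CRS+IMQ libraries, against 25.9, 24.8 and 17.7 FPKM in the CRS libraries. S100a8 had 879, 824 and 849 FPKM in the CRS+IMQ libraries, against 11.8, 13.2 and 9.62 FPKM in the CRS libraries. Both were high in every CRS+IMQ library, with differences of 6.24 and 6.10 (adjusted p = 8.41e-07 and 2.87e-07), and both lost the call with each stressed group averaged to 1 sample. Saa3, an acute-phase serum amyloid, averaged 462 ± 5.76 FPKM in CRS+IMQ and 1.05 ± 0.245 FPKM in CRS (SD, n = 3 each), a difference of 7.83. Lcn2, the iron-binding antimicrobial lipocalin, averaged 40.4 ± 5.26 FPKM in CRS+IMQ and 1.95 ± 0.0686 FPKM in CRS, a difference of 3.80. Of 38 tested members of the keratinocyte activation and antimicrobial list, 36 rose and 0 fell (32 and 0 with each stressed group as 1 sample), and the median difference was 4.90, against 0.06 over all genes. In this list 18 members were under 1 FPKM in all CRS libraries. Its summed level was 18640 to 18960 FPKM in the CRS+IMQ libraries and 745 to 766 FPKM in the CRS libraries. The lowest member of that list was at -0.45 and the highest at 9.29.

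Small proline-rich proteins, which are crosslinked into the envelope of cornifying cells, led the rises. Sprr1b (chromosome 3, chr3:92436809-92438789 in mm10) had 936, 987 and 915 FPKM in the CRS+IMQ libraries, against 0.447, 0.247 and 0.935 FPKM in the CRS libraries. This was the largest rise among all genes tested, with a log2 difference of 9.29 (SE 0.16, adjusted p = 3.3e-07). Sprr2d had 526, 522 and 520.0 FPKM in the CRS+IMQ libraries, against 0.221, 0.0774 and 0.286 FPKM in the CRS libraries. The groups did not overlap, with a log2 difference of 8.78 (SE 0.07, adjusted p = 1.79e-08). Sprr2h, Sprr2a2, Sprr2a1 and Sprr2i rose by 8.36, 7.92, 7.84 and 7.69. Grouped by symbol after the values were seen, both Sprr1 genes and 12 of 12 tested Sprr2 genes rose, and the same counts were called with each stressed group as 1 sample. Of these 1 Sprr1 gene and 11 Sprr2 genes were under 1 FPKM in all CRS libraries, so they could be tested only because CRS+IMQ was higher. The Sprr2 genes are near-identical neighbors, so the level of any single copy is uncertain.

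The stretch of 250 bases before the RefSeq start of Sprr1b and of Sprr2d (build GRCm38.p6) is shown because Sprr1b rose most of all genes and Sprr2d most of the Sprr2 genes named, and because the letters TGANTCA (N is any base), the core bound by AP-1 (Fos and Jun dimers), were searched on both strands of each gene's window of 250 bases before to 50 after its start. The letters occurred in 7.81% of all 32851 windows and in 9 of the 12 windows found for Sprr1 and Sprr2 genes. Both stretches run 5′ to 3′ toward the gene, from chr3:92438780-92439029, minus strand, and chr3:92338890-92339139, plus strand, with the match in capitals. A match describes letters in the window and does not show a bound site.
Sprr1b: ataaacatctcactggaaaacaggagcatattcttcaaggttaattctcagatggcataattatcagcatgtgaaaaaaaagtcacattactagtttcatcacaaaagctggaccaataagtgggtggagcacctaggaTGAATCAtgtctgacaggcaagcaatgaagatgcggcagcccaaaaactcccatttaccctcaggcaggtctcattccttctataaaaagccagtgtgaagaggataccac
Sprr2d: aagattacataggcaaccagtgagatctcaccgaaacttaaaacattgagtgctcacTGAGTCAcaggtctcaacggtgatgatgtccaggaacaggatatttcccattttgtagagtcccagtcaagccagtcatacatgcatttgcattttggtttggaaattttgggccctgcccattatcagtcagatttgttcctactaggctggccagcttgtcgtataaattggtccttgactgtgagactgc
The match begins 111 bases before the start of Sprr1b and 193 bases before that of Sprr2d. None of the 6 Lce3 windows held it, and the Lce3 genes rose as well. The letters were also in 8 of 38 windows of interferon-stimulated genes and 10 of 34 of the keratinocyte activation list. Sprr2 genes are near-identical neighbors, so their windows need not be separate occurrences.

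Stefin A genes, which encode cysteine protease inhibitors of the cornified layer, rose with them. Stfa1 averaged 300.2 ± 6.82 FPKM in CRS+IMQ and 0.450 ± 0.0892 FPKM in CRS, Stfa3 averaged 1602 ± 28.2 FPKM in CRS+IMQ and 8.33 ± 1.65 FPKM in CRS, and Cstdc5 averaged 1886 ± 39.5 FPKM in CRS+IMQ and 3.16 ± 0.669 FPKM in CRS (SD, n = 3 each). Their differences were 7.70, 7.44 and 8.84, and no CRS+IMQ library overlapped a CRS library. Of 10 stefin A and cystatin A genes tested, 10 rose, and 10 did so with each stressed group as 1 sample, with 7 of them under 1 FPKM in all CRS libraries. Copies of this cluster also resemble each other closely. Kallikrein-related peptidases, serine proteases of which several shed corneocytes, were also grouped by symbol after the values were seen, and 10 of 10 tested members rose (9 with each stressed group as 1 sample), with 4 of them under 1 FPKM in all CRS libraries.

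Late differentiation genes changed in both directions. Of 47 tested members of the cornified envelope and barrier list, 35 rose and 2 fell (26 and 2 with each stressed group as 1 sample), with a median of 1.97 and 10 members under 1 FPKM in all CRS libraries. Lce3d, a late cornified envelope gene of the group that answers barrier damage, had 173, 164 and 168 FPKM in the CRS+IMQ libraries, against 0, 0 and 0.0996 FPKM in the CRS libraries. Lce3c and Lce3b rose by 7.16 and 6.43, with Lce3b listed at 0 in every CRS library. In the barrier list 3 tested members were under 1 FPKM in all CRS+IMQ libraries. The 6 Lce3 genes tested rose, also with each stressed group as 1 sample, but all were under 1 FPKM in every CRS library and could be tested only because CRS+IMQ was higher. Of 14 Lce1 genes, none of them that low in either group, 9 rose and 1 fell (3 and 1 with each stressed group as 1 sample), and the median was 1.24. The low member was Lce1m, at 4.89 ± 0.622 FPKM in CRS+IMQ and 31.6 ± 2.78 FPKM in CRS, named after its values were seen.

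Filaggrin, encoded by Flg, bundles keratin and feeds the skin's moisturizing factor. Flg averaged 25.2 ± 0.629 FPKM in CRS+IMQ and 0.966 ± 0.0230 FPKM in CRS and rose by 3.74. Ivl, the envelope scaffold involucrin, averaged 52.4 ± 0.413 FPKM in CRS+IMQ and 3.51 ± 0.0598 FPKM in CRS and rose by 3.56. Rptn, a filaggrin-like matrix protein, averaged 153 ± 3.33 FPKM in CRS+IMQ and 0.236 ± 0.0580 FPKM in CRS and rose by 6.96. Krt10, the keratin of suprabasal cells, averaged 2002 ± 16.4 FPKM in CRS+IMQ and 208 ± 4.25 FPKM in CRS and rose by 3.26. Lor, the chief envelope protein loricrin, averaged 253 ± 6.81 FPKM in CRS+IMQ and 66.9 ± 5.98 FPKM in CRS with a difference of 1.91, and its call was lost with each stressed group as 1 sample. In these genes all CRS+IMQ libraries were above all CRS libraries.

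Krt77, a suprabasal keratin at chr15:101858731-101869705, was the largest fall among all genes tested. It had 0.779, 0.213 and 0.257 FPKM in the CRS+IMQ libraries, against 99.5, 101.2 and 105 FPKM in the CRS libraries. The CRS libraries were uniformly high, with a log2 difference of -6.21 (SE 0.15, adjusted p = 9.99e-07). Krt77 was under 1 FPKM in all CRS+IMQ libraries, so it could be tested only because CRS was higher. Serpina3b and Serpina3j, members of a mouse cluster of protease inhibitor genes, averaged 0.905 ± 0.330 FPKM in CRS+IMQ and 97.5 ± 1.88 FPKM in CRS for the first and 2.41 ± 0.209 FPKM in CRS+IMQ and 89.6 ± 3.57 FPKM in CRS for the second. Their differences were -5.71 and -4.73. In this cluster Serpina3f and Serpina3m rose but were under 1 FPKM in all CRS libraries. These 2 could be tested only because CRS+IMQ was higher. The cluster as a whole was mixed, with 3 rises and 3 falls among 9 tested genes (2 and 2 with each stressed group as 1 sample) and a median of 0.28, and the acute-phase member Serpina3n, named after its values were seen, rose by 3.10.

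Basal keratin genes moved apart. Krt14, the partner of keratin 5 in basal cells, had 7988, 7969 and 7819.9 FPKM in the CRS+IMQ libraries, against 849.8, 842 and 918 FPKM in the CRS libraries. Krt15, a keratin of basal cells and of the hair follicle bulge, had 90.0, 88.9 and 86.9 FPKM in the CRS+IMQ libraries, against 874, 889.7 and 940.2 FPKM in the CRS libraries. All CRS+IMQ libraries were high for Krt14 and low for Krt15, with differences of 3.19 (adjusted p = 9.11e-08) and -3.33 (adjusted p = 5.2e-08). Krt5 averaged 2545 ± 29.5 FPKM in CRS+IMQ and 1187 ± 19.7 FPKM in CRS, a difference of 1.10 that was not called with each stressed group as 1 sample. Of 13 tested basal genes 3 rose and 1 fell (2 and 1 with each stressed group as 1 sample), and the median was 0.30. Ligands of the EGF receptor, growth signals that keratinocytes send to themselves, were higher. Of 10 tested ligand and receptor genes 6 rose and 0 fell (6 and 0 with each stressed group as 1 sample), with Epgn at 4.16, Areg at 3.56, Ereg at 2.84 and Hbegf at 2.78. Epgn, which encodes epigen, had 25.7, 26.9 and 27.8 FPKM in the CRS+IMQ libraries, against 0.443, 0.498 and 0.727 FPKM in the CRS libraries. Among the ligand and receptor genes tested, 3 were under 1 FPKM in all CRS libraries.

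No tested gene of the proliferation list differed by the size needed for a call. Of 28 tested proliferation genes 0 rose and 0 fell (0 and 0 with each stressed group as 1 sample), with a median of -0.04 and a range of -0.54 to 0.39. By adjusted p alone 4 were higher and 7 lower, where the shares over all genes were 35.0% and 25.9%. Mki67, a marker of cycling cells, had 7.61, 8.10 and 8.48 FPKM in the CRS+IMQ libraries, against 8.80, 8.99 and 9.16 FPKM in the CRS libraries. The CRS libraries were slightly higher without overlap, with a log2 difference of -0.14 (SE 0.05, adjusted p = 0.049), which is under the size needed for a call.

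**Figure D2:**
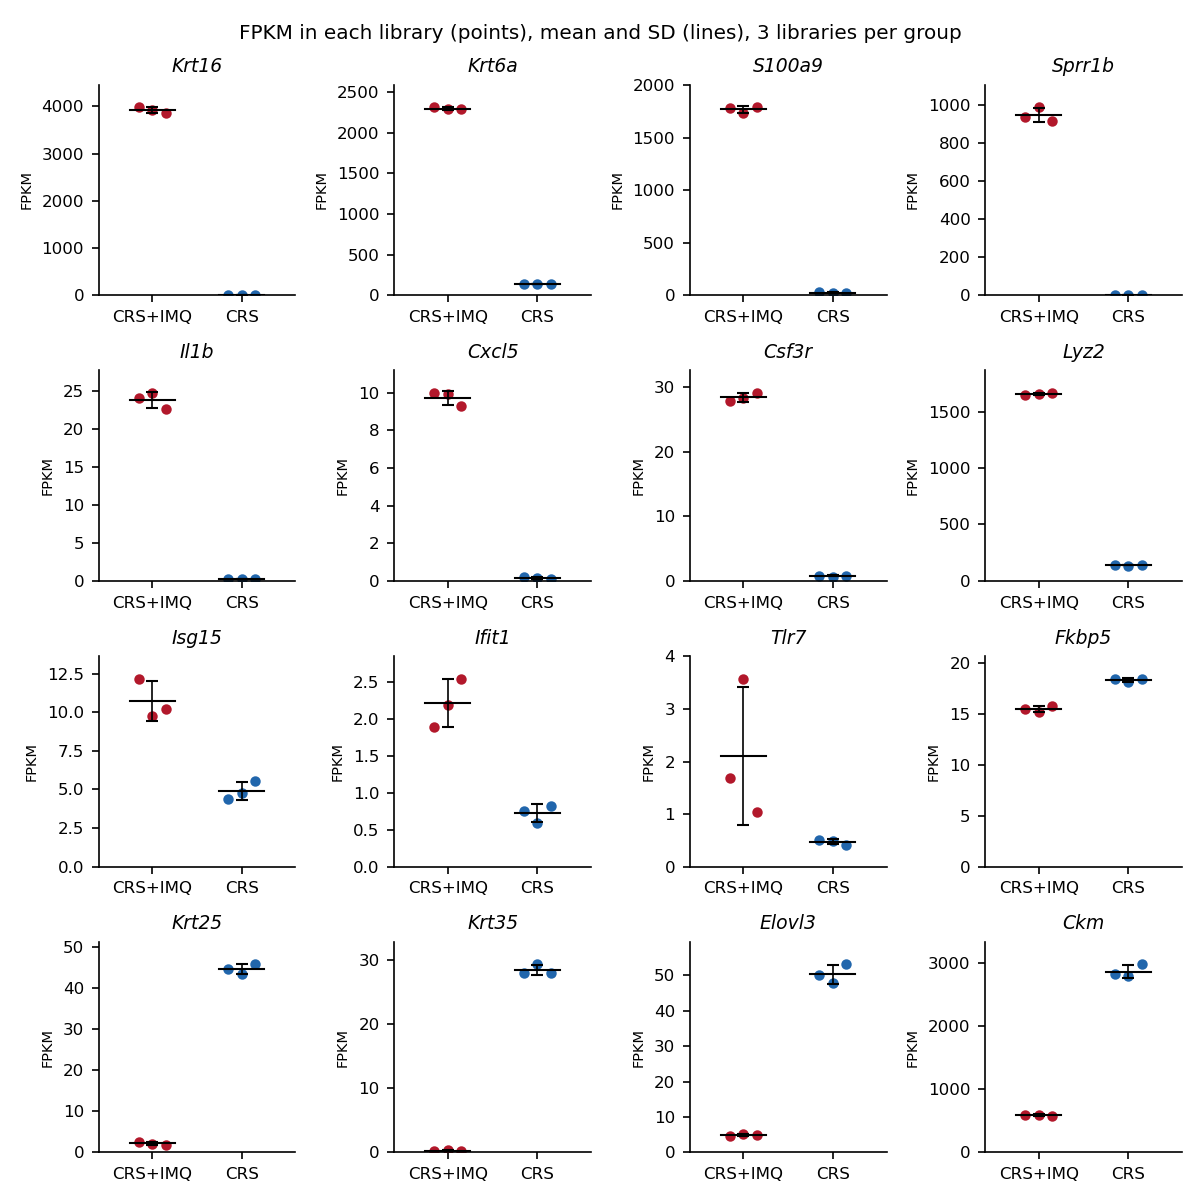
FPKM of 16 genes in each library (points), with the group mean and SD (lines), CRS+IMQ left and CRS right, 3 libraries each, on a linear axis from 0. Krt16, S100a9 and Il1b are near 0 in CRS, Isg15, Ifit1 and Tlr7 differ by less than the size needed for a call, and Krt25, Krt35, Elovl3 and Ckm are higher in CRS.

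Cytokines of the IL-1 and IL-36 family, early alarm signals of epidermis and myeloid cells, were higher in CRS+IMQ. Il1b had 24.1, 24.7 and 22.6 FPKM in the CRS+IMQ libraries, against 0.288, 0.187 and 0.253 FPKM in the CRS libraries. Il1f6, the older symbol of the gene for IL-36 alpha, had 41.8, 42.9 and 45.0 FPKM in the CRS+IMQ libraries, against 0.624, 0.119 and 0.582 FPKM in the CRS libraries. Both were near the bottom of the scale in all CRS libraries and rose by 4.32 and 4.96 (adjusted p = 9.76e-08 and 1.95e-06). Il1f8 and Il1f9, for IL-36 beta and IL-36 gamma, averaged 20.6 ± 0.861 FPKM in CRS+IMQ and 0.609 ± 0.165 FPKM in CRS for Il1f8 and 33.2 ± 1.57 FPKM in CRS+IMQ and 1.39 ± 0.483 FPKM in CRS for Il1f9. Of 18 tested members 14 rose and 0 fell (12 and 0 with each stressed group as 1 sample), with a median of 1.51 and 6 members under 1 FPKM in all CRS libraries.

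Cytokine genes of the IL-23 and IL-17 axis, which drives the imiquimod model in mice, were at the edge of detection in both groups. Only 5 of the 14 listed genes of the axis reached the level needed for a test. Of these 0 rose and 1 fell, with a median of 0.12, and the fall was not called with each stressed group as 1 sample. By adjusted p alone 2 were higher and 1 lower, where the shares over all genes were 35.0% and 25.9%. Il17a was listed at 0, 0.125 and 0 FPKM in CRS+IMQ and at 0 in all CRS libraries. Il22 was listed at 0 in all 6 libraries, and Il23a averaged 0.220 ± 0.0555 FPKM in CRS+IMQ and 0.0668 ± 0.0583 FPKM in CRS. None of the levels of Il17a, Il22 and Il23a allows a direction to be given.

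Downstream cytokines of epidermis were clearer. Il19 and Il24, IL-20 family cytokines that act on keratinocytes, averaged 5.18 ± 0.763 and 5.82 ± 0.313 FPKM in CRS+IMQ. In CRS, Il19 was listed at 0 in all libraries and Il24 at 0 in 2 of 3. Il6 had 1.20, 1.21 and 1.21 FPKM in the CRS+IMQ libraries, against 0.0821, 0.0434 and 0.0806 FPKM in the CRS libraries and rose by 1.04. Socs3, a feedback inhibitor of STAT3 signals, averaged 50.9 ± 0.933 FPKM in CRS+IMQ and 16.8 ± 0.219 FPKM in CRS and rose by 1.55. Bcl3, a nuclear IkB protein, rose by 3.05. The receptor gene Il20ra averaged 0.268 ± 0.114 FPKM in CRS+IMQ and 7.83 ± 0.792 FPKM in CRS, a fall of 2.80 on the log2 scale. In the IL-20, IL-6 and STAT3 list 4 tested members were under 1 FPKM in all CRS libraries and 3 in all CRS+IMQ libraries. Of 16 tested members of the IL-20, IL-6 and STAT3 list 6 rose and 3 fell (6 and 1 with each stressed group as 1 sample).

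Ligands that attract neutrophils through CXCR2 rose together with the receptor. Cxcl2 had 11.7, 10.9 and 11.1 FPKM in the CRS+IMQ libraries, against 0.109, 0.0455 and 0.155 FPKM in the CRS libraries. Cxcl5 had 9.99, 9.90 and 9.31 FPKM in the CRS+IMQ libraries, against 0.225, 0.136 and 0.105 FPKM in the CRS libraries. Cxcl1 had 3.35, 3.62 and 2.28 FPKM in the CRS+IMQ libraries, against 0.293, 0.274 and 0.0767 FPKM in the CRS libraries. These 3 ligands were high in every CRS+IMQ library and rose by 3.47, 3.22 and 1.74 (adjusted p = 2.54e-07, 3.62e-07 and 0.000147). Cxcl3 reached only 1.14, 1.04 and 1.04 FPKM in CRS+IMQ and was at or near 0 in CRS, with a difference of 1.05. Ppbp, a platelet chemokine, overlapped between groups at 0.18 (adjusted p = 0.327).

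Cxcr2, the receptor of these ligands on neutrophils, had 11.3, 10.7 and 10.9 FPKM in the CRS+IMQ libraries, against 0.121, 0.168 and 0.0729 FPKM in the CRS libraries. Csf3r, the receptor of granulocyte colony-stimulating factor, had 27.9, 28.3 and 29.2 FPKM in the CRS+IMQ libraries, against 0.838, 0.681 and 0.830 FPKM in the CRS libraries. Neither gene overlapped between groups, and they rose by 3.42 and 4.05. Csf3, the factor itself, averaged 1.38 ± 0.107 FPKM in CRS+IMQ and 0.00636 ± 0.0110 FPKM in CRS and rose by 1.24. Csf1, the macrophage growth factor, overlapped between groups because 1 of its CRS+IMQ libraries was at 5.07 FPKM, and its difference was 0.48 (adjusted p = 0.132). Csf2 was under 0.2 FPKM in all 6 libraries and was not tested. Of 9 tested members 7 rose and 0 fell (7 and 0 with each stressed group as 1 sample), with 7 of them under 1 FPKM in all CRS libraries.

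A core sequence bound by NF-kB, GGGA followed by any base and TTTCC, was searched on both strands in the same way. It occurred in 0.411% of all 32851 windows and in 4 of the 9 windows found for the neutrophil-attracting list, those of Cxcl1, Cxcl2, Cxcl3 and Csf1. The 250 bases before the start are shown for the 3 chemokines because they share the same 10 letters close to their starts. They lie on chromosome 5 at chr5:90890995-90891244, plus strand, for Cxcl1, at chr5:90903649-90903898, plus strand, for Cxcl2 and at chr5:90785851-90786100, plus strand, for Cxcl3 (RefSeq, GRCm38.p6), and the match is in capitals.
Cxcl1: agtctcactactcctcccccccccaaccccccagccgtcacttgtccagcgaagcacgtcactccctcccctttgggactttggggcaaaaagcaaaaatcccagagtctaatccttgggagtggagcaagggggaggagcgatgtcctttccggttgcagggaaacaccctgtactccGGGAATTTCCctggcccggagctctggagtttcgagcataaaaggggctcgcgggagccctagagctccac
Cxcl2: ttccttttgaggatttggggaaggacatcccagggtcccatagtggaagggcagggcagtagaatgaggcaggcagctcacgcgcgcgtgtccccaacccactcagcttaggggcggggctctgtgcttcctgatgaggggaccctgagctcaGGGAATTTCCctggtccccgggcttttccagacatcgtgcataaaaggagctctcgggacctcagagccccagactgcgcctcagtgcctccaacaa
Cxcl3: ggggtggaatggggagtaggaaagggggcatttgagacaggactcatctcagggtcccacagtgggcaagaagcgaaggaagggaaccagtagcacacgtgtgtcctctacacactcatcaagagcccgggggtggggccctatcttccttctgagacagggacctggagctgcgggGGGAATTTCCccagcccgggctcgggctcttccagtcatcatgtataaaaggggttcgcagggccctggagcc
The match begins 71, 97 and 73 bases before the start of Cxcl1, Cxcl2 and Cxcl3. Csf1 holds the letters and was not called, and a match says nothing of binding.

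Chemokines for other leukocytes rose in part. Ccl8, a monocyte chemoattractant, had 663, 666 and 658 FPKM in the CRS+IMQ libraries, against 26.5, 23.1 and 29.5 FPKM in the CRS libraries. Cxcl13, the chemokine that draws B cells, had 213, 209 and 224 FPKM in the CRS+IMQ libraries, against 2.77, 3.71 and 4.18 FPKM in the CRS libraries. The CRS+IMQ libraries were above the CRS libraries by 4.61 and 5.58 on the log2 scale. Ccl2, Ccl3 and Ccl4 rose by 2.004, 2.85 and 3.03. Cxcl10, a chemokine induced by interferons, averaged 2.08 ± 0.0794 FPKM in CRS+IMQ and 0.569 ± 0.0920 FPKM in CRS, a difference of 0.97 that was not called. Among the other chemokines tested, 4 were under 1 FPKM in all CRS libraries. Of 18 tested members 10 rose and 0 fell (9 and 0 with each stressed group as 1 sample), with a median of 1.41.

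Markers of neutrophils, macrophages and monocytes were higher in CRS+IMQ. Among neutrophil markers, Retnlg, a secreted resistin-like protein, had 116, 102 and 104 FPKM in the CRS+IMQ libraries, against 1.75, 1.67 and 1.69 FPKM in the CRS libraries. Mmp8, the neutrophil collagenase, and Fpr2, a formyl peptide receptor, averaged 17.0 and 16.5 FPKM in CRS+IMQ, against 0.310 and 0.250 FPKM in CRS. The lineage marker Ly6g stayed low, at 2.09 ± 0.380 FPKM in CRS+IMQ and 0.124 ± 0.111 FPKM in CRS, but rose by 1.46. Of 21 tested neutrophil markers 18 rose and 0 fell (16 and 0 with each stressed group as 1 sample), 13 of them under 1 FPKM in all CRS libraries. Their summed level was 273 to 310.5 FPKM in the CRS+IMQ libraries and 19.5 to 25.5 FPKM in the CRS libraries.

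Lyz2, the lysozyme of myeloid cells, had 1648, 1656 and 1667 FPKM in the CRS+IMQ libraries, against 143, 136 and 144 FPKM in the CRS libraries. Adgre1, which encodes the macrophage antigen F4/80, had 79.8, 80.0 and 82.2 FPKM in the CRS+IMQ libraries, against 5.37, 4.40 and 4.64 FPKM in the CRS libraries. The groups were far apart for both, with differences of 3.55 and 3.82 (adjusted p = 2.33e-08 and 2.26e-07). Csf1r, the receptor for macrophage growth factor, Mrc1, the mannose receptor, and Cd14, the lipopolysaccharide coreceptor, rose by 2.59, 2.57 and 3.39. Retnla, a resistin-like protein of alternatively activated macrophages that is also found in fat, went the other way with 3.12, 3.16 and 2.97 FPKM in the CRS+IMQ libraries, against 54.2, 54.4 and 54.8 FPKM in the CRS libraries. It was the single macrophage marker that fell, at -3.76. Of 18 tested macrophage markers 16 rose and 1 fell (16 and 1 with each stressed group as 1 sample), with a median of 2.51, and of 9 tested monocyte markers 8 rose and 0 fell (7 and 0 with each stressed group as 1 sample), with a median of 2.97.

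Other leukocyte lists had at most 9 members that could be tested. Dendritic and Langerhans cell markers leaned lower by less than the size for a call. Of 7 tested 0 rose and 0 fell (0 and 0 with each stressed group as 1 sample), with 1 higher and 4 lower by adjusted p alone and a median of -0.56. By adjusted p alone the shares over all genes were 35.0% higher and 25.9% lower. The summed level of the dendritic and Langerhans cell markers was 111 to 117 FPKM in CRS+IMQ and 174 to 187 FPKM in CRS, without overlap. Cd207, the langerin of Langerhans cells, averaged 2.38 ± 0.0482 FPKM in CRS+IMQ and 1.29 ± 0.268 FPKM in CRS and H2-Aa, a class II chain, averaged 14.4 ± 0.646 FPKM in CRS+IMQ and 22.8 ± 0.941 FPKM in CRS. They differed by 0.56 and -0.63, and Cd207 was the single member higher by adjusted p alone. Only 1 of 16 T cell markers could be tested, Cd4, which macrophage-lineage cells can also express, and it rose by 1.54, also with each stressed group as 1 sample. Cd4 was under 1 FPKM in all CRS libraries, so it could be tested only because CRS+IMQ was higher. The T cell receptor component Cd3e averaged 0.184 ± 0.0322 FPKM in CRS+IMQ and 0.327 ± 0.103 FPKM in CRS, below the level for a test. Igkc, Cd79b and Ighm, the B and plasma cell genes that could be tested of 10, rose by 2.81, 1.41 and 1.39, and all 3 were called with each stressed group as 1 sample. Of 9 tested mast cell markers 5 rose and 0 fell (3 and 0 with each stressed group as 1 sample), with Fcer1a at 2.82, Cpa3 at 2.12 and the chymase Cma1 at 1.33.

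Genes of innate sensing rose in part. Tlr7, which encodes the receptor that imiquimod engages, had 1.68, 3.58 and 1.05 FPKM in the CRS+IMQ libraries, against 0.512, 0.494 and 0.416 FPKM in the CRS libraries. The CRS+IMQ libraries spread widely, 1 of them far above the others, and the difference of 0.99 (adjusted p = 0.0283) was just under the size for a call. Tlr8 and Tlr13, which encode endosomal receptors, rose by 1.55 and 1.86, and Tlr2, for a surface receptor of bacterial lipoproteins, by 2.57. Unc93b1, the chaperone that brings endosomal Toll-like receptors to their compartment, averaged 76.5 ± 1.46 FPKM in CRS+IMQ and 13.6 ± 0.718 FPKM in CRS and rose by 2.41. Of 25 tested members of the TLR7 and NF-kB list 9 rose and 0 fell (6 and 0 with each stressed group as 1 sample), with a median of 0.92. Nfkbiz, an NF-kB cofactor induced by IL-17 and IL-36, rose by 1.51. In this list 5 tested members were under 1 FPKM in all CRS libraries.

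Interferon-stimulated genes shifted upward by less than the size for a call. Of 37 tested members 3 rose and 0 fell (2 and 0 with each stressed group as 1 sample), although 30 were higher and 1 lower by adjusted p alone, where the shares over all genes were 35.0% and 25.9%. The share of all genes that rose was 9.64%, and the 3 rises of 37 did not exceed it. The list median was 0.64, and 4 tested members were under 1 FPKM in all CRS libraries. Isg15, a ubiquitin-like modifier, had 12.2, 9.76 and 10.2 FPKM in the CRS+IMQ libraries, against 4.38, 4.75 and 5.57 FPKM in the CRS libraries. Ifit1, which binds foreign RNA ends, had 1.90, 2.20 and 2.55 FPKM in the CRS+IMQ libraries, against 0.760, 0.594 and 0.828 FPKM in the CRS libraries. The groups did not overlap for either gene, and the differences were 0.99 and 0.90 (adjusted p = 0.000399 and 0.000416). Irf7, the factor that amplifies type I interferon, overlapped between groups at 0.05 (adjusted p = 0.538). The members that rose were Ifitm1, Trim30a and Oas1a, at 3.03, 1.43 and 1.01, and Oas1a was not called with quantile normalization or with each stressed group as 1 sample.

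The interferon-stimulated response element was searched as GAAA, any 2 bases and GAAA again on both strands, and its letters occurred in 3.44% of all windows and in 18 of the 38 windows of the list, for 31 genes matched. Isg15 is shown because it holds 3 overlapping copies, 78, 72 and 66 bases before its start, in capitals in the 250 bases at chr4:156200819-156201068, minus strand (RefSeq, GRCm38.p6).
Isg15: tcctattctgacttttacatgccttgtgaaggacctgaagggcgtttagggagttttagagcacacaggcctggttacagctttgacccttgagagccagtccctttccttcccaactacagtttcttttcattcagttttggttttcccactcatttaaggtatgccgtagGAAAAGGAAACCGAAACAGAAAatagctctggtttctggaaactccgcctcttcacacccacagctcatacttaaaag
In the keratinocyte activation list, 2 of 34 windows held these letters.

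**Figure D3:**
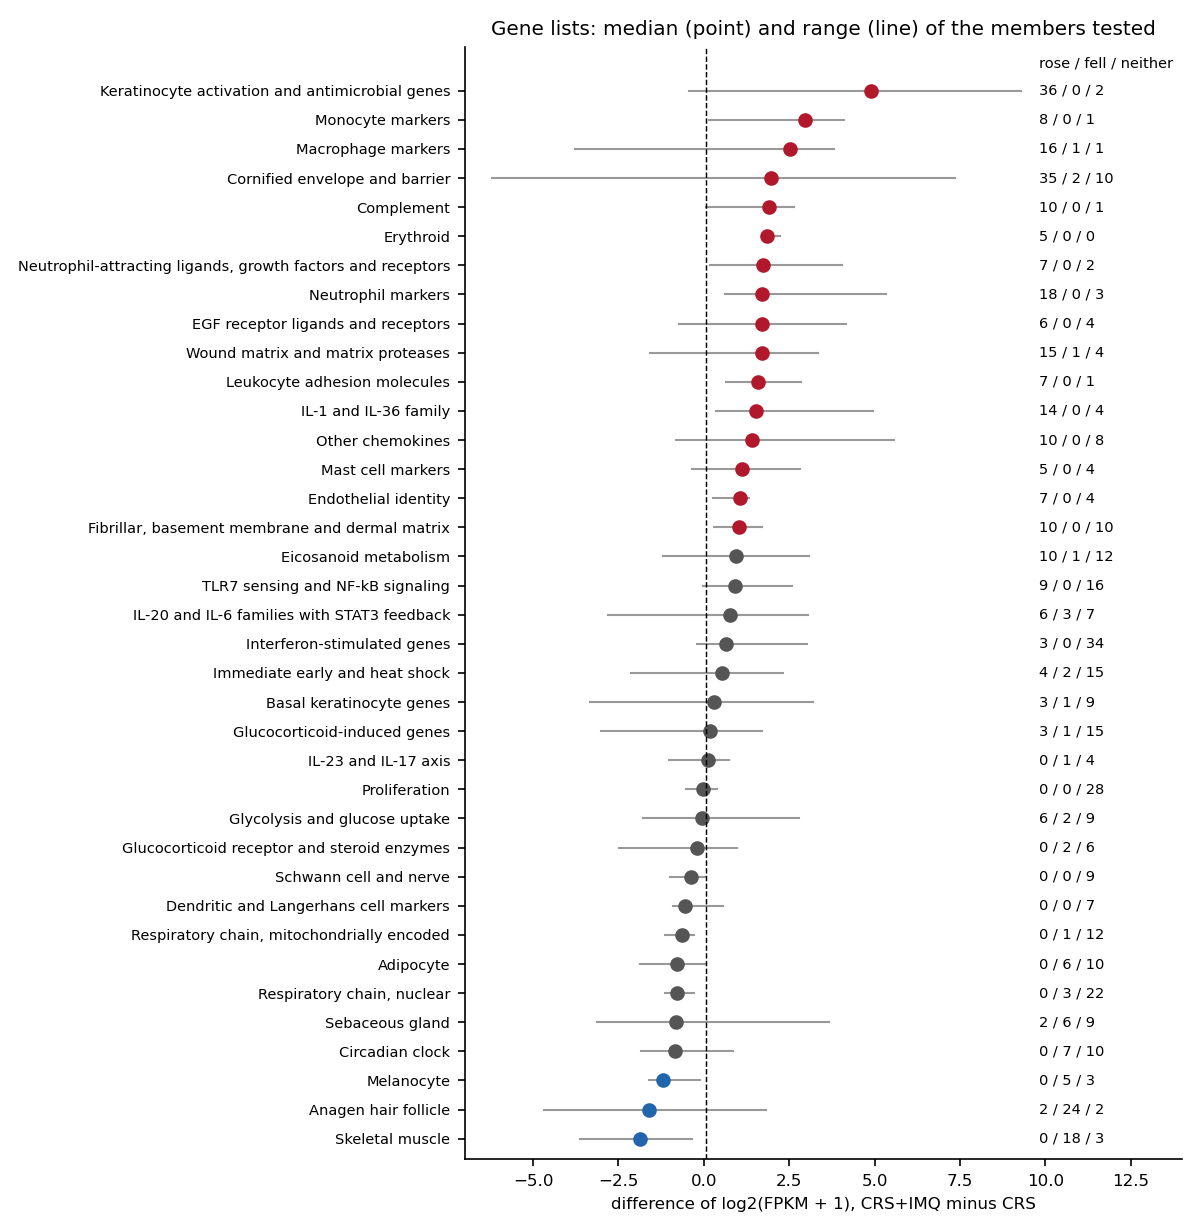
Gene lists with at least 5 tested members, ordered by the median difference of log2(FPKM + 1), CRS+IMQ minus CRS (points), with the range over members (lines), and the numbers that rose, fell or did neither at the right. Red and blue points mark medians of at least 1 in size, the dashed line the median of all genes, and keratinocyte activation is at the top with skeletal muscle at the bottom.

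Most hair follicle genes tested were lower in CRS+IMQ. Krt25, an inner root sheath keratin at chr11:99315516-99322951, had 2.62, 2.14 and 1.88 FPKM in the CRS+IMQ libraries, against 44.6, 43.5 and 45.8 FPKM in the CRS libraries. Krt35, a keratin of the hair cortex, had 0.270, 0.452 and 0.162 FPKM in the CRS+IMQ libraries, against 27.9, 29.3 and 27.9 FPKM in the CRS libraries. Every CRS library was high for both, with differences of -3.83 and -4.51 (adjusted p = 6.2e-07 and 3.42e-07). Krt28, Krt73 and Krt71, inner root sheath keratins, were at -4.67, -3.9999 and -3.77. Krt75, a companion layer keratin, was at -3.84, and Krt24 at -3.97. Of 28 tested members of the anagen hair follicle list 2 rose and 24 fell (1 and 6 with each stressed group as 1 sample), with a median of -1.62 and 16 members under 1 FPKM in all CRS+IMQ libraries. Among those not called with each stressed group as 1 sample were Krt25, Krt28, Krt35, Krt71 and Krt73, and Krt24, which is not on the list, was not called there either. In that fit the spread includes IMQ libraries with summed hair follicle levels of 108 to 1423 FPKM. Grouped by symbol after the values were seen, 6 of 7 tested keratin-associated protein genes fell and 0 rose (4 and 0 with each stressed group as 1 sample), and 5 of the 7 were under 1 FPKM in all CRS+IMQ libraries, so they could be tested only because CRS was higher.

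Pigment genes were lower alongside them. Dct, an enzyme of melanin synthesis, averaged 6.54 ± 0.0920 FPKM in CRS+IMQ and 18.6 ± 0.351 FPKM in CRS, and Pmel, the fibril protein of melanosomes, averaged 11.97 ± 0.264 FPKM in CRS+IMQ and 34.7 ± 0.482 FPKM in CRS. They differed by -1.38 and -1.46, without overlap of libraries. Among the melanocyte genes tested, 2 were under 1 FPKM in all CRS+IMQ libraries. Of 8 tested melanocyte genes 0 rose and 5 fell (0 and 0 with each stressed group as 1 sample), so no fall held in the averaged fit.

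Sebaceous lipid genes were mixed. Elovl3, a fatty acid elongase of the sebaceous gland, had 4.59, 5.18 and 4.81 FPKM in the CRS+IMQ libraries, against 49.95, 47.8 and 53.1 FPKM in the CRS libraries. Awat1, a wax ester synthase, averaged 0.827 ± 0.275 FPKM in CRS+IMQ and 13.2 ± 0.260 FPKM in CRS. Both were high in CRS, with differences of -3.13 and -2.97. Fabp5, the epidermal fatty acid-binding protein, went the other way at 975 ± 14.7 FPKM in CRS+IMQ and 76.6 ± 2.74 FPKM in CRS and rose by 3.65. Among the sebaceous genes tested, 3 were under 1 FPKM in all CRS+IMQ libraries. Of 17 tested members 2 rose and 6 fell (1 and 1 with each stressed group as 1 sample). Of 16 tested adipocyte genes 0 rose and 6 fell (0 and 0 with each stressed group as 1 sample), with the leptin gene Lep at -1.88, Plin4 at -1.64 and Adipoq, which encodes adiponectin, at -0.62.

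Skeletal muscle transcripts were abundant in all 6 libraries and lower in CRS+IMQ. Ckm, muscle creatine kinase, had 596, 600.0 and 581 FPKM in the CRS+IMQ libraries, against 2821, 2792 and 2981 FPKM in the CRS libraries. Pvalb, the calcium buffer of fast fibers, had 87.8, 86.6 and 86.5 FPKM in the CRS+IMQ libraries, against 1049, 1049 and 1179.6 FPKM in the CRS libraries. All CRS libraries lay above all CRS+IMQ libraries, with differences of -2.27 and -3.63 (adjusted p = 1.81e-07 and 1.24e-07). Of 21 tested members 0 rose and 18 fell (0 and 1 with each stressed group as 1 sample), and the median was -1.88. The summed muscle level was 15900 to 16140 FPKM in the CRS+IMQ libraries and 54640 to 56310 FPKM in the CRS libraries, out of totals of 403866 to 406225 FPKM in CRS+IMQ and 411833 to 413900 FPKM in CRS.

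Glycolysis genes were called in both directions, and respiratory chain genes leaned lower by less than the size for a call. Aldoa, the muscle-rich isoform of aldolase, averaged 855 ± 6.63 FPKM in CRS+IMQ and 2949.9 ± 61.1 FPKM in CRS, a difference of -1.78. Slc2a1, the glucose transporter of proliferating and activated cells, averaged 50.9 ± 1.73 FPKM in CRS+IMQ and 6.58 ± 0.619 FPKM in CRS and rose by 2.78. Hif1a, the hypoxia factor that induces glycolysis, rose by 1.38. Of 17 tested glycolysis and glucose uptake genes 6 rose and 2 fell (4 and 0 with each stressed group as 1 sample). By adjusted p alone 24 of the nuclear and 12 of the mitochondrially encoded respiratory chain genes were lower and 0 higher. The shares over all genes were 25.9% lower and 35.0% higher. Of 25 tested nuclear respiratory chain genes 0 rose and 3 fell (0 and 0 with each stressed group as 1 sample), with a median of -0.79, and of 13 mitochondrially encoded genes 0 rose and 1 fell (0 and 0 with each stressed group as 1 sample), with a median of -0.63. Muscle is rich in these transcripts, the summed muscle level was lower by the values above, and its part in the respiratory chain result was not tested.

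Matrix and vessel genes were higher. Of 20 tested fibrillar, basement membrane and dermal matrix genes 10 rose and 0 fell (2 and 0 with each stressed group as 1 sample), with a median of 1.02. Col3a1, the collagen of young scar, averaged 604 ± 9.06 FPKM in CRS+IMQ and 219 ± 1.93 FPKM in CRS and Col1a1, the chief dermal collagen, averaged 847 ± 16.8 FPKM in CRS+IMQ and 423 ± 3.61 FPKM in CRS. Col3a1 rose by 1.46, and Col1a1 lay just under the size for a call. Of 20 tested wound matrix and protease genes 15 rose and 1 fell (11 and 1 with each stressed group as 1 sample). In the wound matrix list 2 tested members were under 1 FPKM in all CRS libraries and 1 in all CRS+IMQ libraries. Mmp3, stromelysin, had 110.0, 105 and 111 FPKM in the CRS+IMQ libraries, against 9.38, 10.01 and 10.4 FPKM in the CRS libraries. Tnc, the wound matrix protein tenascin C, averaged 72.2 ± 0.822 FPKM in CRS+IMQ and 7.96 ± 0.360 FPKM in CRS, Mmp9 averaged 15.5 ± 0.284 FPKM in CRS+IMQ and 0.967 ± 0.127 FPKM in CRS, and these genes rose by 3.33 for Mmp3, 3.03 for Tnc and 3.07 for Mmp9.

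Endothelial adhesion genes rose with leukocyte integrins. Selp and Sele, the selectins on which leukocytes roll, averaged 6.77 and 5.18 FPKM in CRS+IMQ, against 0.911 and 0.665 FPKM in CRS. They rose by 2.03 and 1.89, and the shared integrin chain gene Itgb2 by 2.84. Among the adhesion genes tested, 4 were under 1 FPKM in all CRS libraries, so they could be tested only because CRS+IMQ was higher. Of 8 tested adhesion genes 7 rose and 0 fell (6 and 0 with each stressed group as 1 sample). Of 11 tested endothelial identity genes 7 rose and 0 fell (4 and 0 with each stressed group as 1 sample), with Pecam1 at 1.30 and Vwf at 1.32. Hemoglobin transcripts of blood were higher as well, with a summed erythroid level of 2837 to 3042 FPKM in the CRS+IMQ libraries and 720.2 to 839.5 FPKM in the CRS libraries. All 5 tested erythroid genes rose, with a median of 1.85, and 0 were called with each stressed group as 1 sample. How far blood contributed to these transcripts or to the leukocyte lists was not tested. Hba-a1 and Hba-a2 are near-identical copies, so single-copy levels are uncertain.

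Lipid mediator and complement genes were largely higher. Alox5ap, the activating protein for leukotriene synthesis, had 72.0, 71.7 and 65.3 FPKM in the CRS+IMQ libraries, against 11.6, 11.8 and 12.1 FPKM in the CRS libraries. All CRS+IMQ libraries were high, and the gene rose by 2.46. Ptgs2, the inducible cyclooxygenase, averaged 2.90 ± 0.190 FPKM in CRS+IMQ and 0.166 ± 0.0415 FPKM in CRS and rose by 1.74. Among the eicosanoid genes tested, 5 were under 1 FPKM in all CRS libraries. Of 23 tested eicosanoid genes 10 rose and 1 fell (6 and 0 with each stressed group as 1 sample). C3, the central complement protein, averaged 121 ± 1.38 FPKM in CRS+IMQ and 31.7 ± 1.02 FPKM in CRS and rose by 1.90. Of 11 tested complement genes 10 rose and 0 fell (8 and 0 with each stressed group as 1 sample), with the receptors C3ar1 and C5ar1 at 2.65 and 2.56.

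Glucocorticoid-induced genes were called in both directions between the stressed skins, where the shares over all genes were 9.64% higher and 4.91% lower. By adjusted p alone 9 of 19 tested members were higher and 5 lower, against 35.0% and 25.9% over all genes. Fkbp5, a chaperone whose gene is a standard reporter of glucocorticoid receptor activity, had 15.5, 15.2 and 15.8 FPKM in the CRS+IMQ libraries, against 18.5, 18.2 and 18.4 FPKM in the CRS libraries. CRS was slightly higher without overlap, with a log2 difference of -0.23 (SE 0.03, adjusted p = 0.0013) that was not called. Tsc22d3, which encodes the anti-inflammatory mediator GILZ, overlapped between groups at 0.18 (adjusted p = 0.581). Pdk4, a glucocorticoid- and fasting-induced kinase also strong in muscle, averaged 5.63 ± 0.170 FPKM in CRS+IMQ and 52.4 ± 0.990 FPKM in CRS, a difference of -3.01 that was not called with each stressed group as 1 sample. Of 19 tested members 3 rose and 1 fell (1 and 0 with each stressed group as 1 sample), with a median of 0.18. The receptor gene Nr3c1 overlapped between groups at -0.25 (adjusted p = 0.546), with 1 CRS library at 3.78 FPKM against 10.1 and 9.69 FPKM in the others. Hsd11b1, which regenerates active glucocorticoid, averaged 4.31 ± 0.194 FPKM in CRS+IMQ and 1.74 ± 0.116 FPKM in CRS and was not called.

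Clock output genes were lower in CRS+IMQ. Dbp, an output factor of the circadian clock, had 13.4, 14.3 and 13.8 FPKM in the CRS+IMQ libraries, against 50.7, 50.1 and 56.1 FPKM in the CRS libraries. Per2, a core repressor, averaged 3.60 ± 0.176 FPKM in CRS+IMQ and 11.6 ± 0.689 FPKM in CRS. They differed by -1.85 and -1.45, and Arntl, the opposing activator, by 0.84 without a call. Of 17 tested clock genes 0 rose and 7 fell (0 and 4 with each stressed group as 1 sample). The labels do not give the hour of collection. Of 21 tested genes of the immediate early and heat shock list 4 rose and 2 fell (2 and 1 with each stressed group as 1 sample), with Junb at 2.33, Egr1 at 1.35 and Nr4a1 at -2.12. Of 9 tested Schwann cell and nerve genes 0 rose and 0 fell (0 and 0 with each stressed group as 1 sample).

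The same imiquimod contrast without stress, IMQ against control, had far fewer rises. Of 13981 genes tested there, 1253 were called (8.96%), 323 higher (2.31%) and 930 lower (6.65%). The median coefficient of variation was 11.6% in IMQ and 11.8% in control, against 3.43% in CRS+IMQ and 4.72% in CRS. Counts of calls are therefore not directly comparable between the contrasts. The difference between the contrasts was tested directly as an interaction in 1 fit of all 12 libraries. It is the same as setting CRS+IMQ minus IMQ against CRS minus control, and each of these pairs lies within 1 table, so a gene's shift that is common to a table cancels on the log2 scale. Of 14864 genes, 3607 were called (24.3%), with 2376 more positive under stress (16.0%) and 1231 more negative (8.28%). Of 13403 genes tested in both contrasts, 364 rose under stress and fell without it, and 62 fell under stress and rose without it. Another 85 rose in both and 51 fell in both. The interaction called 2231 genes with each stressed group as 1 sample.

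Of 30 keratinocyte activation genes tested in both settings, 19 rose in both. Without stress 20 rose and 2 fell of 30 tested, with a median of 2.05, and the interaction called 32 higher and 1 lower of 38 tested. Its summed level was 18640 to 18960 FPKM in CRS+IMQ, 745 to 766 FPKM in CRS, 2403 to 3762 FPKM in IMQ and 790.1 to 1196 FPKM in control. Every CRS+IMQ library was above every IMQ library, and every IMQ library above the CRS and control libraries.

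Macrophage markers were lower with imiquimod in unstressed skin, where 0 rose and 15 fell of 18 tested with a median of -2.26. The interaction called 17 higher and 0 lower of 18 tested. Their summed level was 3342 to 3392 FPKM in CRS+IMQ, 466 to 486 FPKM in CRS, 464 to 655 FPKM in IMQ and 3333 to 5124 FPKM in control. CRS and IMQ were thus both low, and CRS+IMQ and control both high. Treatments were taken as labelled, and no value in these libraries shows on its own that a library had imiquimod, so the labels were not checked against the data. Interferon-stimulated genes had a like pattern, with 852 to 880.3 FPKM in CRS+IMQ, 498 to 524 FPKM in CRS, 336 to 357 FPKM in IMQ and 1406 to 1587 FPKM in control. Without stress 0 rose and 28 fell of 37 tested, and the interaction called 35 higher and 0 lower of 37 tested.

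Hair follicle genes showed the reverse. Without stress 11 rose and 0 fell of 20 tested, with a median of 2.20, and the interaction called 1 higher and 24 lower of 28 tested. Their summed level was 35.9 to 39.8 FPKM in CRS+IMQ, 303 to 318 FPKM in CRS, 108 to 1423 FPKM in IMQ and 45.2 to 57.6 FPKM in control. The 3 IMQ libraries spread widely and all lay above the control libraries, and the CRS libraries lay within the IMQ range. Proliferation genes, none of them called under stress, had 8 rises and 0 falls of 28 tested without it, and the interaction called 0 higher and 15 lower of 28 tested. Their summed level was 213 to 224 FPKM in CRS+IMQ, 223 to 231 FPKM in CRS and 120 to 175 FPKM in control. The IMQ libraries spread from 192 to 602 FPKM, with the lowest of them near the control range. Muscle transcripts were at 15900 to 16140 FPKM in CRS+IMQ, 54640 to 56310 FPKM in CRS, 27450 to 39800 FPKM in IMQ and 16670 to 37190 FPKM in control, so control libraries alone spanned more than the IMQ group.

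**Figure D4:**
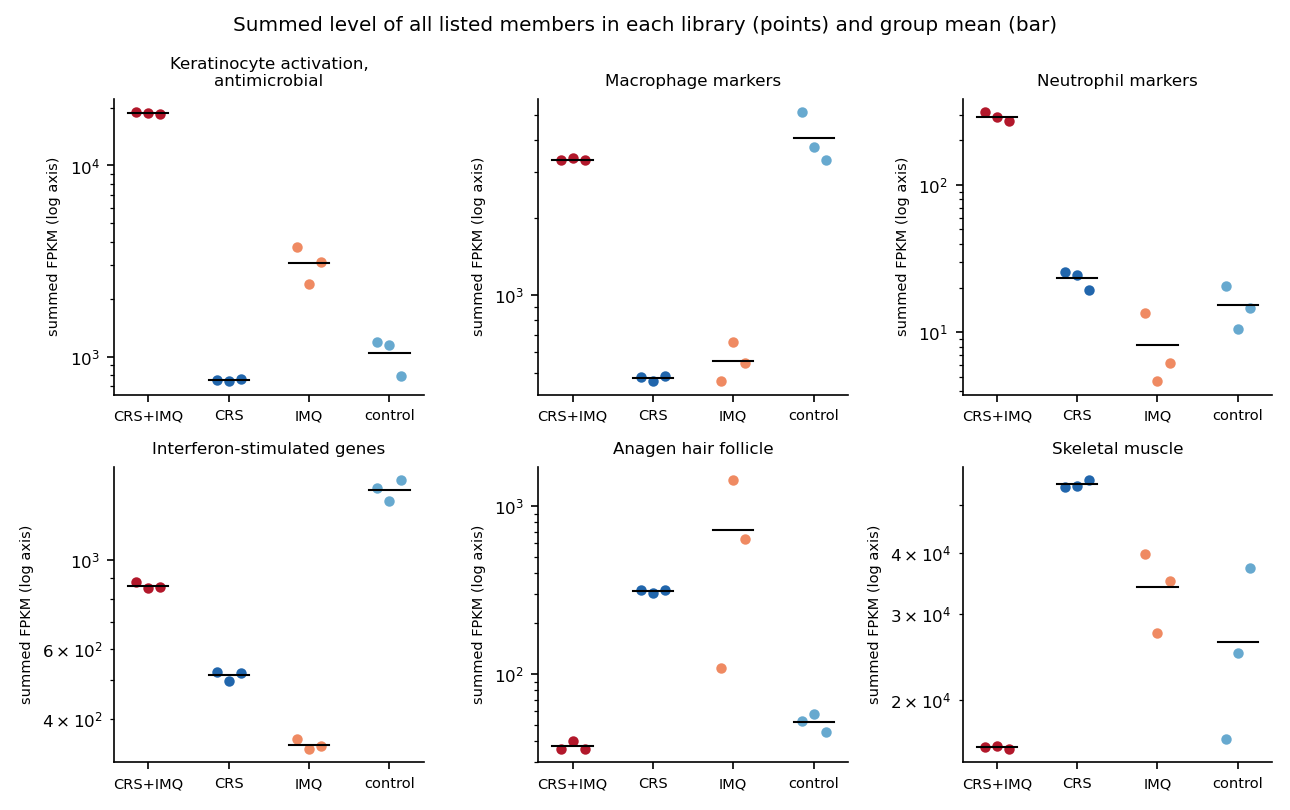
Summed FPKM of all listed members in each library (points) and the group mean (bar) on a logarithmic axis, for 6 gene lists in CRS+IMQ, CRS, IMQ and control, 3 libraries each. Keratinocyte activation is highest in CRS+IMQ, macrophage markers are high in CRS+IMQ and control, and hair follicle genes are low in CRS+IMQ and control.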

How the data were processed

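Total RNA of dorsal skin had been sequenced on a NovaSeq instrument, per the labels' protocols. Per the submitters' processing notes, which give no versions, the tools included limma, edgeR and StringTie and the build was mm10. No aligner is named in the sources used here. Values used here were FPKM per gene as deposited by the authors, in 2 tables of 55401 genes joined by gene identifier. A value of 0.0001 stood in place of 0 and was set to 0. Tests on read counts were not run. Spacing of the lowest FPKM values matched depths of 19.86 to 22.68 M fragments (M, mega) in the 6 libraries, with 18.8 to 26.9% of those values within 0.05 of a whole fragment. A finer spacing matched as well, so the depth is not known in absolute terms.

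Genes with at least 1 FPKM in 3 or more of the 6 libraries were kept. Values were log2(FPKM + 1), fitted in limma 3.58.1 (R 4.3.3) with trend and robust empirical Bayes, two-sided, with Benjamini-Hochberg adjustment over all genes of a fit. With 3 libraries against 3 the smallest exact p is 0.1, so calls rest on limma's variance model. The code was tested on simulated data. Positions are from GENCODE M21 and upstream sequences from RefSeq (GRCm38.p6). The comparison, its gene lists and the alternatives were chosen with earlier results of these data known. Named genes were the 12 largest rises and falls with at least 5 FPKM in the higher group and no overlap, fixed members of each list, up to 4 called members per list with the largest difference, and the neutrophil-attracting ligands. Alternatives were other scalings, another pseudocount, other filters, a block for the replicate number, each library left out, a fit of all 12 libraries and averaged stressed groups. The result for 1 listed gene is not reported here.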

Additional observations from a re-analysis of the deposited data

Results flagged for a closer look

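The imiquimod difference was not the same with and without stress for 3607 of 14864 genes (24.3%), by the interaction in limma's fit of all 12 libraries. Among the genes always reported, those called in opposite directions in the stressed and the unstressed contrast are given here with the interaction, which is CRS+IMQ minus CRS less the IMQ minus control difference on the log2 scale. Macrophage genes were more positive under stress, with 5.20 for Adgre1, 5.01 for Csf1r and 4.58 for Mrc1. The proteases Mmp9 and Mmp3 had interactions of 5.52 and 4.63. Krt10, C3 and Alox5ap had 4.32, 4.30 and 4.02. Hair follicle keratin genes were more negative under stress, with -9.50 for Krt25, -8.94 for Krt35 and -8.81 for Krt71. Dct and Per2 had -3.83 and -3.42.

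Adgre1 averaged 80.7 FPKM in CRS+IMQ, 4.80 FPKM in CRS, 9.19 FPKM in IMQ and 25.01 FPKM in control. Krt25 averaged 2.21 FPKM in CRS+IMQ, 44.6 FPKM in CRS, 113 FPKM in IMQ and 0.0249 FPKM in control. The IMQ libraries of Krt25 spread from 4.97 to 237 FPKM. What sets these patterns was not tested.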

How the results depend on the processing

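The 2041 calls stayed within 1.5 times under other scalings, filters, the pseudocount of 0.1, plain empirical Bayes and a fit of all 12 libraries, with 1983 to 2784 called, and at 2024 to 2056 with 1 library left out. The calls fell to 1037 with each stressed group averaged to 1 sample, 877 higher and 160 lower, against 1352 and 689, and calls by adjusted p alone to 1111, against 8536. In that fit 1839 genes passed an unadjusted p under 0.05 and the size limit. The interaction fell to 2231, against 3607, and lay at 3393 to 3838 with 1 library left out. Averaging leaves fewer samples and takes the spread from other groups, so a lost call there does not show that a gene is unchanged.

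Among 186 named genes that were tested, 136 kept their side of the threshold in that fit and 50 lost the call. Quantile normalization reversed Irf7 to -0.070, Mt2 to -0.012 and Tsc22d3 to -0.0094, none of them called, and leaving out the third CRS library moved Tsc22d3 to -0.083, in a range of -0.083 to 0.33 with 1 library left out. Quantile normalization also moved the medians of the IL-23 and IL-17 list and of the glucocorticoid-induced list to -0.011 and -0.012. Of 39 list medians, quantile normalization moved another 35 by more than the spread between replicates, the pseudocount of 0.1 moved 26, median-ratio scaling 12 and averaging 2, all in the same direction as before. Leaving out 1 library moved 18 of them at least once. The cause was not tested. With the replicate number as a block 2032 genes were called and 3604 by the interaction. Deviations of same-numbered libraries correlated at -0.04, 0.04 and 0.00, so no pairing by number was visible. A pairing that left no shared deviation cannot be seen this way. FPKM values limit the tests, since depth enters them only through the spread between libraries.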
